A study of Mus musculus and Meriones unguiculatus with 4 samples.

Results

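The genes described here are nuclear genes of the mitochondrial respiratory chain, chosen by name alone. They are the symbols that start with Nduf followed by a, b, c, s or v and a digit, with Uqcr, or with Cox and a digit, and the succinate dehydrogenase genes Sdha to Sdhd, where the symbol occurred once in each species' table. The rule found 55 genes among 13321 symbols shared by the tables, and 53 of them passed the filter on low values that left 10158 measured genes. A further 16 nuclear symbols occurred by name only in the mouse table and 4 only in the gerbil table, Sdhb, Ndufv2 and Cox4i1 among them, and were not analysed here. The name rule is wider than the subunits themselves: Cox10, Cox11, Cox15, Cox18 and Cox19 encode factors that build complex IV and are no part of the finished enzyme.

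RNA came from the enamel knot region, cut by laser from frozen sections of fixed lower-jaw tooth germs. The embryos were wild-type mice on embryonic day 13 and wild-type gerbils on embryonic day 15, with 2 libraries for each species. An enamel knot is a cluster of non-dividing epithelial cells that signals to the growing tooth. The libraries are called PEK and SEK (mouse) and E21 and E23 (gerbil) after their column names, which the labels do not explain. Read as embryonic days, E21 and E23 would conflict with the labelled day 15, so the age of the gerbil embryos is uncertain. If the column names stand for different stages or regions the pairs are not replicates, and the labels do not say whether a pair came from separate animals.

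The respiratory chain sits in the inner mitochondrial membrane. Complex I takes electrons from NADH and complex II from succinate, complex III passes them to cytochrome c, and complex IV gives them to oxygen, while complexes I, III and IV pump the protons that drive ATP synthase. A few subunits of complexes I, III and IV are made from the mitochondrion's own genome, and the others are imported from nuclear genes such as these. Complex IV has subunit isoforms that belong to particular tissues, among them Cox6a2, Cox7a1 and Cox8b of heart and skeletal muscle.

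A level is a value per gene length (FPKM in mouse, TPM in gerbil), rescaled so that the matched genes of a library sum to 1000000. It is therefore a share of the matched genes and not of all RNA in a library. In gerbil E21 and E23 the genes described here summed to 13215 and 14374 on this scale, though they held 0.175% and 0.169% of all TPM. Rescaling thus raised the gerbil values, and differences between species depend on it. These genes were highly expressed in all 4 libraries. Their median level was 508 in mouse PEK and 655 in SEK, against 28.0 and 21.1 over all measured genes, and 254 in gerbil E21 and 255 in E23, against 47.7 and 44.8. The genes of highest level were Cox6c at 2679 in PEK, Uqcrq at 3328 in SEK, and Uqcrb at 989 in E21 and 1355 in E23. Cox6a1, a small subunit of complex IV, was among the 5 highest in all 4 libraries. Across the 53 genes, which share libraries and are no replicates, Spearman's rho of the levels was 0.947 between PEK and SEK, 0.968 between E21 and E23 and 0.655 between the species means.

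**Figure D1:**
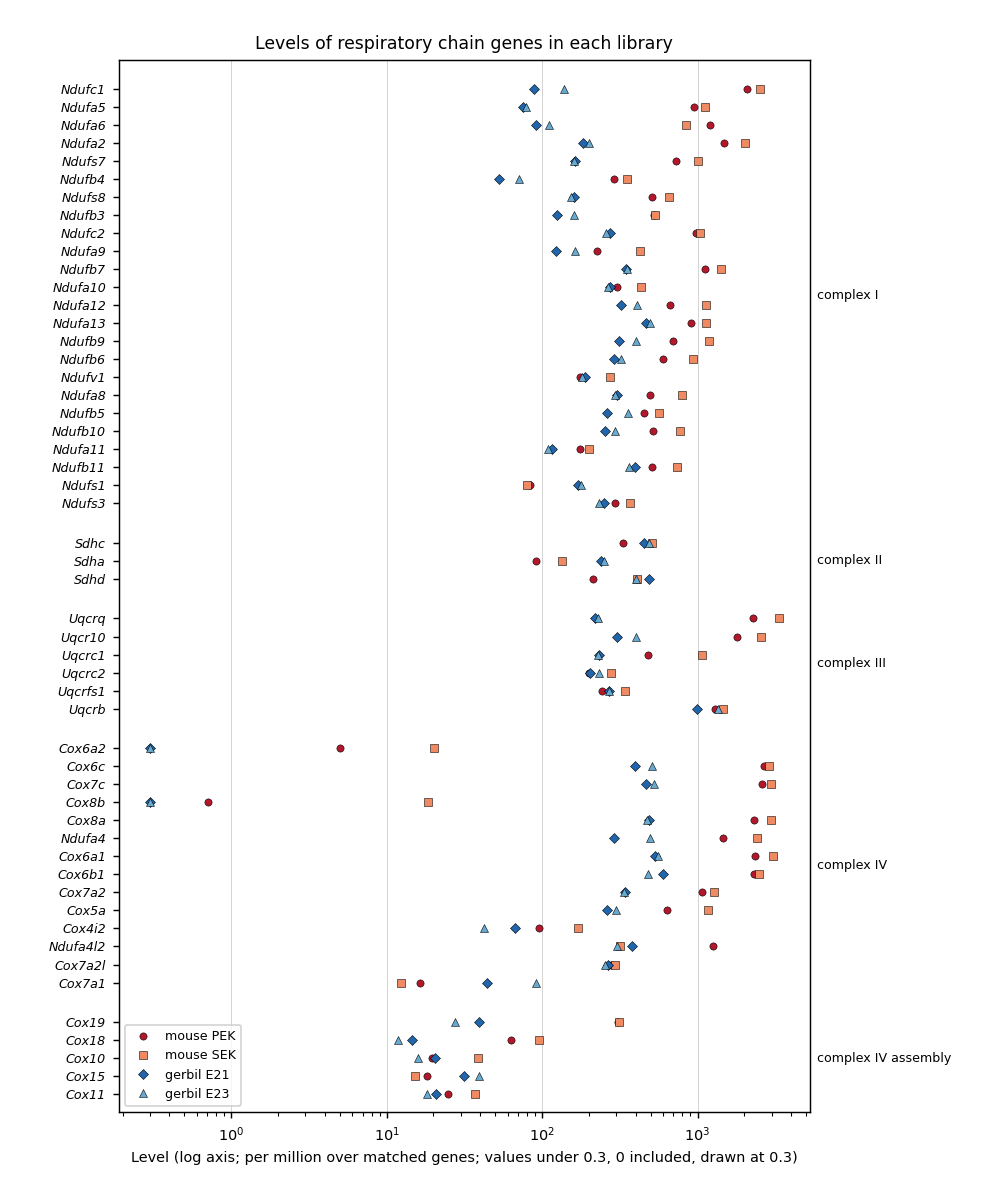
Level of the measured genes, 1 left out (log axis, per 1000000 over the matched genes) in the 4 libraries, grouped by complex and ordered within a complex by the length-corrected difference between species. For most genes the mouse points lie to the right of the gerbil points; Cox6a2 and Cox8b were listed at 0 in both gerbil libraries and are drawn at the left edge.

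Most of these genes are short, and short genes as a whole stood higher in the mouse values. The median exon-union length, the total length of a gene's exons, was 1046 bases for the 53 genes and 3381 for all measured genes, and 39 of the 53 fell among the shortest 10% of genes. In that class the other genes had a median difference (log2 level, gerbil less mouse) of -1.14, and the respiratory chain genes one of -1.84. Among the longest 10%, which held none of them, the median was 2.06. The running median along length was therefore taken out of each library, and differences below carry this correction unless said otherwise. After it, the 39 genes had a median of -0.32 and the others of their class one of 0.00. The correction was flat below 755 bases, the median length of its shortest bin, where 18 of the genes lay, with an uncorrected trend of -1.52. Without the correction 47 of the 53 differences were below 0, as were 3665 of all 10158 measured genes. The medians were -1.29 and 0.62. With the correction 31 of the 53 were below 0, and 5129 of the 10158.

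**Figure D2:**
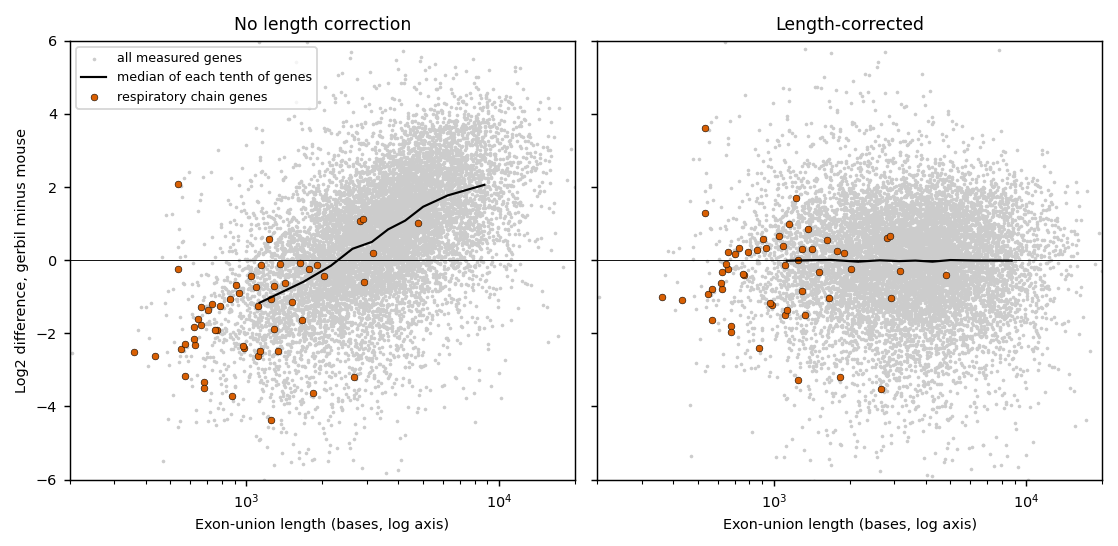
Log2 difference between gerbil and mouse against exon-union length (log axis) without and with the length correction, for all measured genes (grey), the median of each 10% of genes by length (line) and the 53 respiratory chain genes (orange). Without the correction the orange points of short genes lie mostly below 0 (median -1.29 over all 53); with it their median is -0.30, and Cox7a1 stands apart among the short genes at 3.60.

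After the length correction the respiratory chain genes were on balance slightly lower in gerbil, and most did not meet the rule for a call. A gene was called for one species where its lower library still exceeded the higher library of the other by 2-fold or more. Of the 53 genes, 12 were called higher in mouse (22.6%, where 14.6% of all measured genes were so called), 3 higher in gerbil (5.66%, background 13.4%) and 38 were neither. With no length correction the counts were 24 and 2, beside backgrounds of 11.9% and 29.7%. The 12 genes include Cox6a2, which was listed at 0 in both gerbil libraries and passed the filter only through mouse. With the correction and a minimum level of 10 in each species, which left Cox6a2 out, the counts were 10 and 2. The median difference was -0.30, against -0.01 over all measured genes, and it was -0.10 without mouse SEK. By complex it was -0.14 for the 25 genes of complex I, 0.67 for 3 of complex II, -0.41 for 6 of complex III, -0.71 for 14 of complex IV and -1.04 for the 5 assembly factors. No test was run across the tables, which the authors normalized separately, and 2 against 2 libraries cannot give a two-sided exact permutation p below 0.333.

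The choice of length matters for single genes. With the trend taken along the median length of a gene's transcripts in place of its exon union, 10 of the 53 were higher in mouse (background 14.2%) and 2 in gerbil (background 13.2%), with a median of -0.24. A gerbil TPM further depends on the length of the gerbil gene model. Further comparisons drew on the gerbil read-count and RPKM columns and were then set aside, because those columns cannot be matched to samples, so their values are not given. With gerbil reads set over mouse transcript lengths, the calls of Ndufa5, Ndufa6, Ndufs7, Cox6c, Cox7c, Sdhd and Uqcrb ended, the signs of Ndufa5, Ndufa6, Sdhd and Uqcrb turned, and Ndufa4, Ndufa11, Ndufa13, Cox7a2 and Cox15 gained a call. With the trend taken along gerbil effective length the calls of Sdhd and Uqcrb ended too, and more genes were called higher in mouse. The calls of these genes, and the absence of one, are therefore uncertain.

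**Figure D3:**
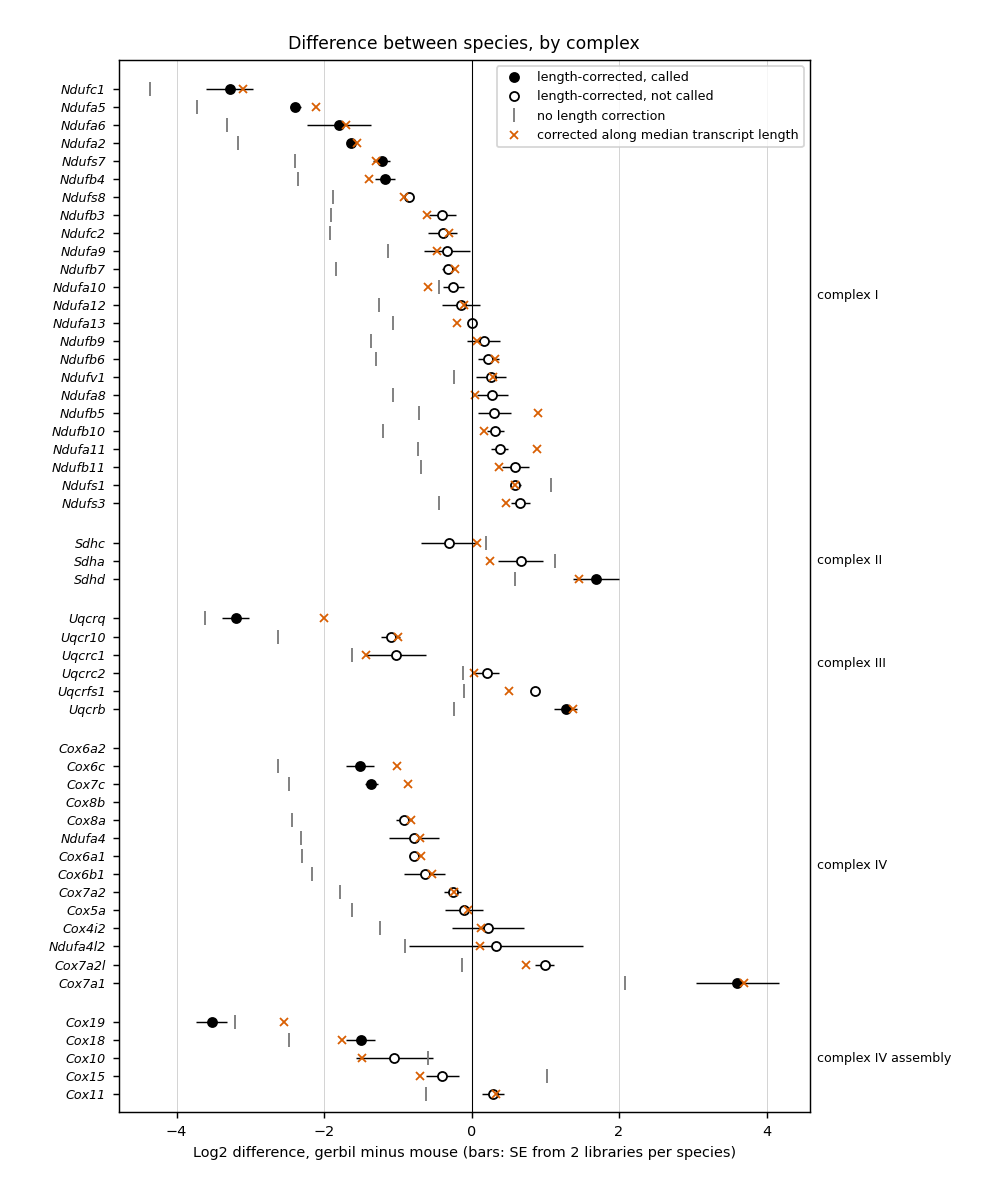
Log2 difference, gerbil minus mouse, of the genes by complex, 1 left out: circles with SE bars (n = 2 libraries per species) are length-corrected and filled where called, grey ticks carry no length correction, and orange crosses are corrected along median transcript length. Ndufc1, Uqcrq and Cox19 lie left of 0 and Cox7a1 right of 0 by all 3 measures; Cox6a2 and Cox8b, listed at 0 in gerbil, have no points.

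Most of the nuclear core subunits of complex I were not called in either direction. Of 6 measured, 5 were neither, as were 7312 of all 10158 measured genes. The median difference was 0.40. With no length correction it was -0.34, and 2 were called higher in mouse and 1 in gerbil. Ndufs1, which carries iron-sulfur clusters on the way from NADH, had levels of 83.4 (PEK) and 80.5 (SEK) in mouse and 169 (E21) and 177 (E23) in gerbil (difference 0.60 ± 0.07, SE, n = 2 per species). Both gerbil libraries lay above both mouse libraries, and without the length correction the gene was called higher in gerbil (1.07). Ndufv1, which binds NADH, was at 175 and 273 in mouse and 190 and 180 in gerbil, so its libraries overlapped. The ubiquinone-side subunits Ndufs3 (0.66 ± 0.13) and Ndufs8 (-0.85 ± 0.05) met neither criterion. Without the length correction Ndufs3 was at -0.44 and Ndufs8 was called higher in mouse (-1.87). Ndufs8 was also called with no filter on low values (-1.14).

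Ndufs7, which holds the last iron-sulfur cluster before ubiquinone, was the one core subunit called. It was at 723 and 1001 in mouse and at 162 and 161 in gerbil (-1.22 ± 0.12). The groups were well apart, but the call for mouse is uncertain for its gerbil length, as said above, and ended with a pseudocount of 0.1 (-1.15) and with GC content also removed (-0.55).

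The accessory subunits of complex I, which surround the core, held its other calls. Of 19 measured, 5 were called higher in mouse (26.3%, background 14.6%) and 0 higher in gerbil (background 13.4%), and the median was -0.25. Ndufc1, a small membrane subunit, was at 2079 and 2533 in mouse and at 88.2 and 139 in gerbil, so the lowest mouse value lay far above the highest in gerbil. Its difference was -3.28 ± 0.32, a 9.72-fold corrected difference, and -3.10 along transcript length. Ndufc1 (ENSMUSG00000037152) lies on chromosome 3 from 51404677 to 51408988 in the GRCm38 coordinates of the mouse table.

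Ndufa5, a subunit of the arm that reaches ubiquinone, was at 943 and 1111 in mouse and at 75.1 and 78.6 in gerbil (-2.39 ± 0.07). Ndufa6, of the LYR protein family, was at 1204 and 845 against 90.9 and 110 (-1.80 ± 0.43). Ndufa2, an accessory subunit of the NADH-binding arm, was at 1486 and 2006 against 183 and 201 (-1.64 ± 0.05). In each of these genes both mouse libraries lay above both gerbil libraries by several fold before correction. The mouse gene Ndufa2 overlaps the coding gene Tmco6, and the sources used here do not say whether counting used strand. The direction for Ndufa5 and Ndufa6 is uncertain, since it turned in the comparison with gerbil reads over mouse transcript lengths.

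Ndufb4, of the membrane arm, was at 288 and 350 against 52.5 and 71.1 (-1.17 ± 0.13). This call sat at the edge of the rule: it ended with 20 bins along length (-1.12), a pseudocount of 0.1 (-1.11), a minimum level of 10 in each species (-1.16) or without mouse PEK (-1.13). The remaining 14 accessory subunits were neither, between -0.40 for Ndufb3 and 0.59 for Ndufb11. Among them Ndufa13, known also as GRIM-19, was at 908 and 1126 in mouse and 468 and 496 in gerbil, an excess in mouse that the length correction took to 0.01 ± 0.05. Without that correction Ndufb3 (-1.91), Ndufb7 (-1.84) and Ndufc2 (-1.91) were called higher in mouse.

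Complex II, which is also an enzyme of the citric acid cycle, had 1 of its 3 measured genes called higher in gerbil (background 13.4%). With no length correction, and along median transcript length, 0 of the 3 were called. Sdha, its flavoprotein, was at 91.9 and 135 in mouse and at 238 and 251 in gerbil (0.67 ± 0.31). The groups did not overlap, but the nearest libraries were less than 2-fold apart. The membrane anchor Sdhc was at 329 and 511 against 454 and 487 (-0.30 ± 0.38), with overlapping groups.

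Sdhd, the other anchor, was at 212 and 405 in mouse and 484 and 401 in gerbil, which also overlap before correction. The corrected difference of 1.69 ± 0.31 put it among the genes higher in gerbil, a direction that is uncertain for gerbil length. The call ended without length correction (0.59), with no filter on low values (1.36), with GC content also removed (1.46) and along median transcript length (1.45), and with neither rescaling nor correction the sign turned (-1.29).

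Complex III held one of the 3 lowest differences of all these genes. Uqcrq, a small subunit, was at 2282 and 3328 in mouse and at 218 and 228 in gerbil. The groups were far apart, and the corrected difference was -3.20 ± 0.18. Uqcrq (ENSMUSG00000044894, chromosome 11, 53427922 to 53430831) has an exon union of 1827 bases but a median transcript of 504, and along transcript length its difference was -2.00. Uqcr10, another small subunit, was at 1804 and 2566 against 304 and 403 (-1.09 ± 0.13), and the core protein gene Uqcrc1 at 478 and 1072 against 233 and 230 (-1.03 ± 0.42). Neither was called, but both sat near the rule. Without mouse PEK both were called higher in mouse (-1.15 for Uqcr10 and -1.47 for Uqcrc1), as they were with no length correction (-2.62 and -1.62), and Uqcr10 was also called with 20 bins along length (-1.32), with the trend taken without these genes (-1.19), with no filter (-1.64) and without gerbil E23 (-1.20). The Rieske iron-sulfur protein gene Uqcrfs1 (0.85 ± 0.06) and the core protein gene Uqcrc2 (0.21 ± 0.17) met neither criterion.

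Uqcrb, which encodes a ubiquinone-site subunit, was at 1286 and 1460 in mouse and 989 and 1355 in gerbil, with overlapping groups. The length correction made it higher in gerbil (1.28 ± 0.16), which is uncertain for the same reason. The call ended and the sign turned without the correction (-0.24), and the call also ended with 20 bins (1.05), with no filter (0.73), with a minimum of 10 (1.18) and with GC content also removed (0.76).

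The widely expressed subunits of complex IV mostly had differences below 0. Cox6c was at 2679 and 2869 in mouse and 393 and 508 in gerbil (-1.51 ± 0.18), and Cox7c at 2587 and 2970 against 468 and 528 (-1.36 ± 0.09). Both were called higher in mouse, and both calls ended along median transcript length (-1.01 and -0.86) and are uncertain for gerbil length. The differences of Cox8a (-0.92 ± 0.11), Cox6a1 (-0.78 ± 0.07), Ndufa4 (-0.78 ± 0.34), Cox6b1 (-0.63 ± 0.28), Cox7a2 (-0.26 ± 0.12) and Cox5a (-0.10 ± 0.26) were not called. With no length correction each of these was called higher in mouse, from -2.44 for Cox8a to -1.62 for Cox5a. With no filter on low values Cox8a (-1.46) and Cox6a1 (-1.32) were also called, as was Cox8a with 20 bins along length (-1.15). Ndufa4 is counted here because its product, named for complex I, is a subunit of complex IV. Cox7a2l, which encodes a factor that joins complexes III and IV into supercomplexes, was at 276 and 296 in mouse and 266 and 255 in gerbil (0.99 ± 0.13, not called). Without mouse PEK it met the rule for higher in gerbil (1.10). The ratio of Cox7a2l to Cox7a2 within a library was 0.258 and 0.233 in mouse and 0.780 and 0.757 in gerbil.

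Cox7a1, the heart and muscle isoform of subunit VIIa, had the largest gerbil-minus-mouse difference of the 53 genes. Its level was 16.4 (PEK) and 12.3 (SEK) in mouse and 44.0 (E21) and 91.0 (E23) in gerbil, so the groups did not overlap. The difference was 3.60 ± 0.56, a 12.2-fold corrected difference, and it was 2.08 with no length correction and 3.70 along transcript length. The ratio of Cox7a1 to the widely expressed isoform Cox7a2 was 0.0154 and 0.00965 in mouse and 0.129 and 0.270 in gerbil. The call ended with neither rescaling nor length correction (0.24). Endothelial markers also differed between the gerbil libraries: 4 of them summed to 5.31 in PEK, 13.2 in SEK, 1.13 in E21 and 103 in E23, where Cox7a1 was highest. Skeletal muscle markers ran the other way between species, with sums of 140 in PEK, 534 in SEK, 14.3 in E21 and 18.1 in E23. The part of either cell type in the result was not tested. Cox7a1 (ENSMUSG00000074218) spans 30184144 to 30186078 of chromosome 7.

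The other muscle isoforms had values above 0 in mouse only. Cox6a2 was at 4.99 in mouse PEK and 20.2 in SEK, and Cox8b at 0.706 and 18.4, while both were listed at 0 in each gerbil library. Both passed the filter on low values only through mouse. Cox6a2 met the rule for higher in mouse, and its mouse gene overlaps the coding gene Itgad, while Cox8b did not meet it (SE of the difference 1.58). The summed level of skeletal muscle markers moved with them, at 140 in PEK, 534 in SEK, 14.3 in E21 and 18.1 in E23. Of 8 matched markers 3 were called higher in mouse (background 14.6%) and 0 in gerbil (background 13.4%). Some of these markers passed the filter on low values only through mouse, so they could hardly be called for gerbil. Among them were Myod1 and Myh3, the latter at 0.302 in E21 and 0.170 in E23. Between the mouse libraries Myod1 went the other way, from 4.33 in PEK to 0.548 in SEK. Myod1 was listed at 0 in both gerbil libraries and Mylpf in E21, while 0 of the 8 were at 0 in mouse. The part of muscle RNA in these values was not tested, and in bulk samples fewer cells of a type and less RNA per cell cannot be told apart. Cox8c was at 0 in all 4 libraries and Cox7b2 at 0.830 in mouse SEK and 0 elsewhere, so neither was measured.

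Ndufa4l2 and Cox4i2, isoforms known to respond to low oxygen, were not called. Ndufa4l2 was at 1265 in mouse PEK, 319 in SEK, 376 in E21 and 304 in E23. PEK alone stood high, and the difference was 0.33 ± 1.18; without PEK it was 1.51 and met the rule for higher in gerbil. Cox4i2 was at 95.7 and 170 in mouse and 67.1 and 42.3 in gerbil (0.22 ± 0.48).

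The assembly factors of complex IV were expressed far below its subunits. Their median level was 24.7 and 38.9 in mouse and 20.7 and 18.2 in gerbil. Cox19, a factor of copper delivery, was at 309 and 314 in mouse and at 39.3 and 27.5 in gerbil, well apart. Its difference of -3.52 ± 0.21 was the lowest of the 53 genes, and along transcript length it was -2.54. Cox19 (ENSMUSG00000045438) spans 139336189 to 139351484 of chromosome 5. Cox18, which inserts part of the mitochondrially made Cox2 protein into the membrane, was at 63.5 and 95.6 against 14.6 and 11.8 (-1.50 ± 0.19). The heme A synthesis genes Cox10 (-1.04 ± 0.52) and Cox15 (-0.39 ± 0.22) and the copper chaperone gene Cox11 (0.29 ± 0.15) were neither. Without mouse PEK, Cox10 met the rule for higher in mouse (-1.50).

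Within a species few of the genes differed by 2-fold or more between libraries. On the corrected scale 33 of the 53 were higher in mouse SEK than in PEK (48.0% of all measured genes were), 2 of them 2-fold or more (background 7.44%), and 1 was 2-fold or more lower (background 8.44%). That one was Ndufa4l2 (-2.30), and those higher in SEK were Cox8b (3.15) and Cox6a2 (1.47). The summed muscle markers above were also higher in SEK, though Myod1 was lower there. Without the length correction 48 of the 53 were higher in SEK (90.6%, against 39.0% of all measured genes), with a median of 0.43 against -0.21, so the share higher in SEK depends on the correction. In gerbil, 23 of the 53 were higher in E23 than in E21 (background 48.6%), 0 were 2-fold higher (background 6.02%) and 0 were 2-fold lower (background 3.68%). The values ran from -0.84 for Cox4i2 to 0.84 for Cox7a1. Each of these compares 1 library with 1 other, with no replicate check.

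**Figure D4:**
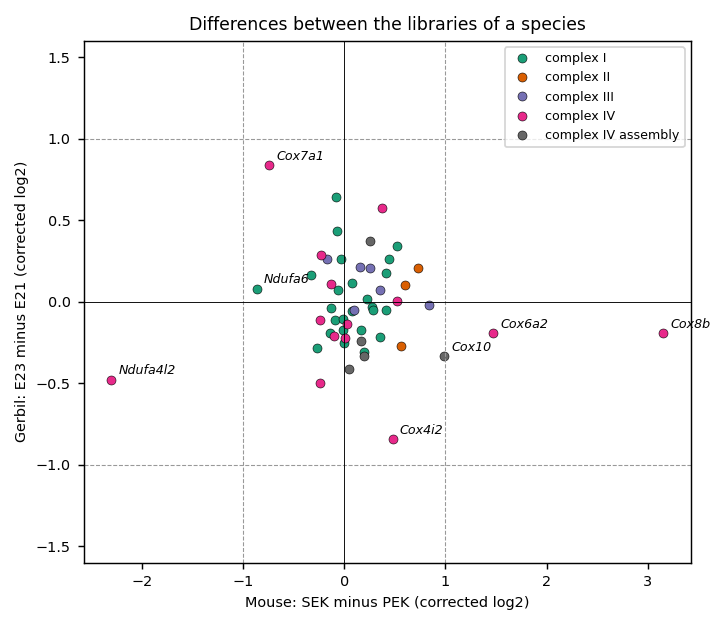
Corrected log2 difference between the mouse libraries (SEK minus PEK, horizontal) and between the gerbil libraries (E23 minus E21, vertical) for each gene, coloured by complex, with dashed lines at 2-fold. The points cluster around 0, and Ndufa4l2, Cox6a2 and Cox8b lie beyond the lines on the mouse axis; the vertical position of Cox6a2 and Cox8b, both listed at 0 in gerbil, is only the length correction.

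Mouse promoters are shown for genes of each kind of call, since nuclear respiratory factor 1 (NRF1) is a known activator of many respiratory chain genes. RefSeq promoters (GRCm38.p6, 250 bases before to 50 after the start) matched 41 of the 55 genes by symbol, with 42 promoters. The NRF1 motif with any base at its middle position, searched on both strands, was in 9 of the 41 genes (22.0%), in 881 of the 8006 other measured genes of that table and in 5.19% of all its genes. The SP1 motif GGGCGG was in 43.9% of the 41 and 70.2% of the other measured genes. The ETS motif CCGGAAGT was in 9.76% and 8.19%, and the YY1 motif AAGATGGC in 9.76% and 5.12%. A match describes the letters and is no evidence of binding. The 120 bases before the start follow, 5′ to 3′ on the gene's strand, with NRF1 motif matches in capitals, for Ndufb4 (higher in mouse; chr16:37654369-37654488, minus strand), Sdhd (higher in gerbil; chr9:50603850-50603969, minus strand), Sdha (neither; chr13:74350241-74350360, minus strand) and Cox7a1 (higher in gerbil; chr7:30184051-30184170, plus strand).
Ndufb4: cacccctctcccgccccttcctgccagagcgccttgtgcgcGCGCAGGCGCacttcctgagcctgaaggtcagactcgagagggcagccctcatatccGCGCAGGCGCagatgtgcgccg
Sdhd: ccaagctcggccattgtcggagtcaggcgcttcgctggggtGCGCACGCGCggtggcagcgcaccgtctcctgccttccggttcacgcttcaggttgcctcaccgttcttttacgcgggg
Sdha: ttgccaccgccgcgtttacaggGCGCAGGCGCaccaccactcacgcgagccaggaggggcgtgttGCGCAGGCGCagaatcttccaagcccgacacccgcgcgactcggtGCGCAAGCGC
Cox7a1: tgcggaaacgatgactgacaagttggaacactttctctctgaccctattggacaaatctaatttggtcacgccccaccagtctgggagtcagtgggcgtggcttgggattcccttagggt
Genes with a match thus include one called for each species and one neither, and the Cox7a1 window holds no such letters.

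Other genes of mitochondrial respiration showed a mixed picture. The backgrounds for these lists were the same 14.6% for mouse and 13.4% for gerbil. Of 8 ATP synthase genes measured, 3 were higher in mouse and 0 in gerbil (median -0.27). Atp5d, which encodes a subunit of the central stalk, was lowest (-3.03 ± 0.17), and Atp5g3, of the rotating ring, was next (-2.10 ± 0.08). Of 29 assembly factors outside the name rule, 5 were higher in mouse and 4 in gerbil (median 0.39, and -0.49 with no length correction). Surf1, a complex IV factor, was at 116 and 129 in mouse against 11.3 and 17.1 in gerbil (-1.92 ± 0.28), and Coa7 differed by -3.40 ± 0.45. Sco1, which delivers copper to complex IV (1.53 ± 0.06), and Coa5 (2.79 ± 0.29) were higher in gerbil.

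Of 15 citric acid cycle and pyruvate dehydrogenase genes, 0 were higher in mouse and 2 in gerbil (median 0.47), namely Suclg1 (1.09 ± 0.05) and Pdha1 (1.32 ± 0.16). Neither was called along transcript length (0.85 and 0.99). There 1 of the 15 was called higher in mouse, Dlat (-1.61), and 1 higher in gerbil, and the highest difference was 2.63. The 16 genes of cytochrome c, coenzyme Q and the carriers gave 0 and 1, Vdac3 (1.67 ± 0.21), with a median of 0.20. Of 14 regulators of mitochondrial gene expression, 1 was higher in mouse and 3 in gerbil. Their median had no fixed sign: it was -0.35, but 0.75 with no length correction, 0.03 along transcript length and 0.30 with GC content also removed. Tfb1m, a methyltransferase of mitochondrial ribosomal RNA, was at 10.9 and 11.1 in mouse and 50.8 and 58.4 in gerbil (3.13 ± 0.19). Nrf1 was neither (-1.26 ± 0.43, and 0.27 along transcript length).

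Of 64 mitochondrial ribosomal protein genes, 15 were higher in mouse and 4 in gerbil (23.4% and 6.25%, median -0.23). Of 31 cytoplasmic ribosomal protein genes, which are also short and abundant, 0 were higher in mouse and 16 in gerbil (51.6%), with a median of 1.63. Without length correction 2 were higher in mouse and 4 in gerbil (12.9%, background 29.7%), with a median of 0.86 against 0.62 over all measured genes. Whether the lists differ from each other was not tested.

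Genes of the mitochondrial genome, which the rule leaves out, were read in gerbil only. The 13 coding genes held 1.55% of all TPM in E21 and 1.63% in E23, with a median of 798 and 863 TPM. The 55 nuclear genes held 0.175% and 0.169%, and the measured ones had a median of 33.7 and 30.0 TPM.

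As a check of the labelled tissue, all 8 enamel knot markers were matched and none was at 0 apart from Fgf20 in gerbil E23. Their summed level was 4244 and 2410.5 in mouse PEK and SEK and 1300.1 and 1363 in gerbil, and 4 of them were called higher in mouse (background 14.6%) and 0 in gerbil (background 13.4%). Shh made up most of the gerbil sums, at 963 in E21 and 1186 in E23, and was at 946 in PEK and 609 in SEK. Every other knot marker was lower in E23 than in E21, such as Dkk4 at 8.92 against 45.0. The 7 epithelial markers summed to 5339.5 and 7632 in mouse and 8953 and 7857 in gerbil, and 7 mesenchymal markers to 851 and 1205 in mouse and 1778 and 2957 in gerbil. The mesenchymal markers did not move as one: 1 was called higher in mouse and 0 in gerbil, and Barx1 was at 209 and 540 in mouse against 38.2 and 17.7 in gerbil. The part of such differences in tissue make-up was not tested. Depth is not given for the mouse libraries by the values used here and was not analysed here for gerbil.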

How the data were processed

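Mouse values are FPKM per assembled locus (27632) and gerbil values TPM per gene (25745), deposited by the authors in 1 table per species. Tools in the submitters' processing notes are cutadapt 2.8, STAR 2.7.1a and RSEM 1.3.1, with GRCm38 and mm10 as mouse builds; which step made which table, and the gerbil build, are not given in the sources used here. Columns show the species and no sample number. The gerbil table has 4 more columns with values per sample, read counts and RPKM, which were examined and then set aside because they cannot be matched to samples. Gerbil depth was not analysed here, and FPKM carry no depth for mouse, so no precision is drawn from it.

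Symbols found once in each table were matched ignoring case, without LOC, Gm and Rik names. Levels sum to 1000000 per library. Differences use log2(level + 1), which understates changes of low genes. Measured genes have a mean level of at least 1 and an exon-union length (GENCODE M21 basic annotation, GRCm38). The running median of each library's deviations along length, in 40 bins, was subtracted. The SE comes from 2 libraries per species, whose spread may be technical. The steps were tested on simulated data. Python 3.11.15, numpy 2.4.6, pandas 2.3.3 and scipy 1.17.1 were used.

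Named genes are the called genes, the largest and smallest differences per complex, the most abundant genes, core subunits, tissue isoforms and genes at 0, and some of the extreme differences of the other lists. No gene of the mitochondrial or cytoplasmic ribosome lists is named. The values of 1 measured gene are not reported here, though counts and medians include it. The members and lists were chosen with earlier results of these data known. Alternatives varied length correction, rescaling, bins, pseudocount, filter and call rule and left out each library; those on median transcript length and on GC content of transcripts were chosen after seeing the data.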

Additional observations from a re-analysis of the deposited data

How the results depend on the processing

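The median difference of the 53 genes (-0.30) was -1.29 with no length correction, -3.06 with neither rescaling nor correction and -0.55 with no filter, and -0.33 to -0.10 when 1 library was left out (-0.10 without mouse SEK). With no length correction the medians of complexes I, III and IV were -1.25, -0.93 and -2.23. With neither step, complexes I to IV and the assembly factors were at -3.12, -1.29, -2.80, -3.56 and -2.13. With no filter, complexes I and IV were at -0.38 and -1.18, and with GC content also removed complex IV was at -0.38. Leaving out 1 library gave -0.23 to -0.01 for complex I, 0.40 to 0.96 for complex II, -0.55 to -0.11 for complex III (-0.11 without mouse SEK), -0.73 to -0.55 for complex IV and -1.50 to -0.56 for the assembly factors. Calls higher in mouse (12) were 24 with no length correction and 47 with neither step, and 12 to 15 when 1 library was left out. Calls higher in gerbil (3) were 0 with neither step, 5 with the 1.5-fold rule, 1 with no filter and 1 with GC content also removed, and 3 to 5 when 1 library was left out (5 without mouse PEK). The sign turned for Uqcrb with no length correction (-0.24), and for Sdhd (-1.29) and Uqcrb (-2.13) with neither step. Leaving out rescaling shifts every difference by construction; the cause of the other changes was not tested.

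No paired analysis was possible because the columns carry no sample numbers. GC content of the exon union was not run, since no genome sequence was used. Alternatives on the gerbil read-count and RPKM columns, chosen after seeing the data apart from RPKM in place of TPM, are not given, for the reason in the report; those that varied gerbil length ended calls and turned signs there, so the difference of a single short gene is uncertain. Depth was not used, so a value listed at 0 carries no limit.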
